A study of Homo sapiens with 6 samples.

Results

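The insulin (INS), insulin-like growth factor 2 (IGF2) and tyrosine hydroxylase (TH) genes lie next to each other on the short arm of chromosome 11, and the accessible regions around them were described here one by one. The members were all regions of the deposited ATAC-seq table that overlapped chr11:2100000-2350000 (hg38), and 30 of the 108542 regions of the table did so. Each was placed against the start sites that GENCODE gives for INS, for INS-IGF2 (a read-through gene that begins at the INS start and runs into IGF2), for IGF2 and for TH.

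The libraries came from EndoC-βH3, a human beta-like cell line made from fetal pancreas and labelled wild type. Its immortalising transgenes, hTERT and the SV40 large T antigen, are removed by a tamoxifen-inducible Cre that the cells also carry. The senescent group (3 libraries, treatment label Senescence induction) had been induced with 4-hydroxytamoxifen for 3 weeks, and the non-senescent group (3 libraries, treatment label control) kept the transgenes. Each library was made from 100000 cells of this 1 line, and the labels do not say whether replicates were separate cultures. ATAC-seq reads collect where a transposase can reach the DNA. The value given for a region is its mean signal, the authors' mean over all 6 libraries of read counts scaled for depth. It is 1 number for both groups together, so no SD, interval or test belongs to it, the senescent and non-senescent groups are not compared, and the depth of single libraries is unknown from the table.

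INS encodes the hormone that lowers blood glucose, and in the adult it is made almost only by beta cells. Its promoter is bound by PDX1, NEUROD1 and MAFA, which read short A-box (TAAT), E-box and MARE elements close to the start. IGF2 encodes a fetal growth factor and is an imprinted gene with several promoters, and TH encodes the enzyme that makes L-DOPA, the first step of catecholamine synthesis. CTCF is a zinc finger protein that holds chromatin loops and separates enhancers from promoters, and the study designed a pair of guides to delete a CTCF-bound element near INS.

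The sequences that the description turns on are the upstream part of the INS promoter, the 2 guides, and the CTCF core matches. The first is the stretch of 250 bases before the RefSeq start of INS (GRCh38.p14, chr11:2161210-2161459, minus strand), shown because the region over the INS start covers it. Its capitals mark the A-box letters TAAT, the MAF letters TGCTGA, the purine-rich letters GGAAA and the E-box letters CAGATG, in either orientation. The letters TAAT and GGAAA were added to the search after this sequence had been read.
INS, 250 bases upstream: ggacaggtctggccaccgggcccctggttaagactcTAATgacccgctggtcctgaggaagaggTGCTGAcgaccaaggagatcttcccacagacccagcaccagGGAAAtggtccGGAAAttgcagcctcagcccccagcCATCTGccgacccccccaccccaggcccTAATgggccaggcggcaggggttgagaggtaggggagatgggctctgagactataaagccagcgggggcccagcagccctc

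Counted back from -1 at the last base before the RefSeq start, TAAT lay at -214 to -211 and again at -81 to -78. The letters TGCTGA, which also occur in the element read by MAF proteins, lay at -186 to -181, and binding there was not tested. The E-box CATCTG, which is CAGATG read from the other strand and is the letters bound by NEUROD1 with its partner, lay at -109 to -104. GGAAA lay at -145 to -141 and at -134 to -130. Over 35116 RefSeq promoters, the same 250 bases held TAAT in 47.4%, GGAAA in 55.6%, TGCTGA in 14.02% and CAGATG in 12.2%, so each of these letter strings is common by itself. INS-IGF2 has the same promoter window in that table.

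The guide pair is shown because both sites fell inside the widest region of the locus. The capitals mark the PAM, the 3 bases next to the target that Cas9 requires.
Guide 1, chr11:2156185-2156204, plus strand: ctgtgattctaggggctcgcAGG
Guide 2, chr11:2157008-2157027, plus strand: aggcgccagttatccatgccAGG
With the cut taken 3 bases before each PAM, 823 bp lay between the cuts, 63.4% of them G or C.

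Of the 5 regions of the locus with a CTCF core match, 4 are shown, and that of chr11:2299063-2299692, a region that overlaps an exon of C11orf21, is left out. The matches are shown with 13 bases on each side, and the capitals mark the 14 letters of the core, of which at least 13 had to match on either strand. Each is printed on the strand that matched, plus for chr11:2305301-2305600 and minus for the others shown. The second of them is the match between the cuts.
Core in chr11:2137116-2137908: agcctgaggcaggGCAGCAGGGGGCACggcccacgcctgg
Core in chr11:2153680-2159212: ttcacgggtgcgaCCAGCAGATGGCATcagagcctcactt
Core in chr11:2189804-2191310: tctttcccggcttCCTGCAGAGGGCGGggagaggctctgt
Core in chr11:2305301-2305600: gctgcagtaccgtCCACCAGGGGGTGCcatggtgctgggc
The core match between the cuts overlaps the letters CAGATG, so that 1 stretch counts under both motifs.

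The locus was among the more open stretches of the genome. The 30 regions covered 28415 bp, or 11.4% of the 250 kb, against 2.40% of the genome covered by all regions. Windows of the same 250 kb, moved along all 24 chromosomes in steps of 50 kb, held a median of 8 regions where they held any, and 98.6% of these 56040 windows held fewer than 30. The summed mean signal of the locus was 25389, against a median of 1800 over these windows, and 99.8% of them had less. These windows overlap each other and are given as a description.

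The regions of the locus ranged from 213 to 5533 bp in width (median 676 bp, against 543 bp over all regions) and from 44.4 to 7894 in mean signal (median 352, against 98.0). Of the 30, 26 lay above the median mean signal of all regions, and 27 lay above the median per kb. All 30 had a GC content above the median of all regions, with a range from 59.3% to 75.7% and a median of 64.0%, against 46.9%. The part of this base composition in the signal was not tested. The middle of the region lay in an intron for 12, in an exon for 6 and between genes for 12.

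**Figure D1:**
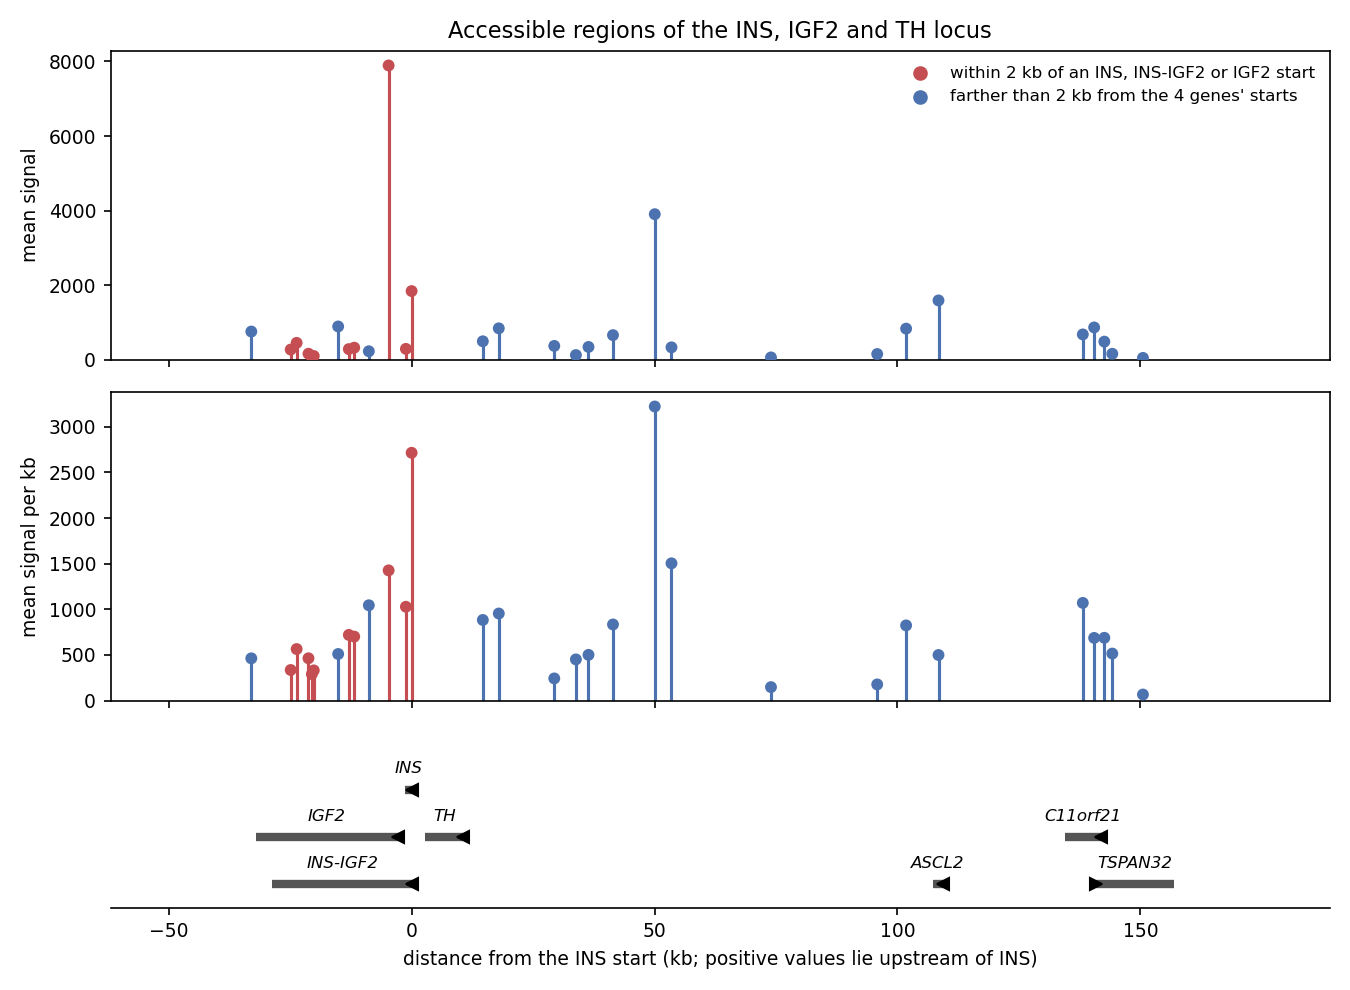
Mean signal (top) and mean signal per kb of width (middle) of the 30 regions against the distance of their middle from the INS start in kb, with gene spans and arrowheads at their starts (bottom). Red points lie within 2 kb of a start of INS, INS-IGF2 or IGF2. The wide region over the IGF2 start has the highest mean signal, 7894, and the region 49.4 kb upstream of INS has the highest mean signal per kb, 3222.

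The signal was concentrated in a few regions. The strongest region held 31.1% of the summed mean signal of the locus, the 3 strongest held 53.7% and the 5 strongest held 63.4%. The 5 strongest were the wide region at the IGF2 start, the region 49.4 kb upstream of INS, the region over the INS start, the region over ASCL2 and a region inside the IGF2 span. By stretches of the locus, the 3 regions from the wide region at the IGF2 start to the INS start region held 39.5% of the signal. Of the 5533 bp of the wide region, 4711 bp lie downstream of the outermost IGF2 start, within the IGF2 span. The 11 regions between the TH start and ASCL2 held 31.8%. The 9 other regions in the IGF2 span held 10.8%, the 5 regions at C11orf21 and TSPAN32 held 8.73%, the ASCL2 region held 6.25% and the single region beyond the end of IGF2 held 2.96%.

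The region over the INS start was chr11:2160844-2161520, 677 bp wide. It contained all 5 annotated INS starts (2160971, 2161158, 2161204, 2161209 and 2161221) and the INS-IGF2 start. It reached 299 bp upstream and 377 bp downstream of the outermost start, over the first exon and intron and most of the second exon, which holds the beginning of the coding sequence. Its mean signal was 1838, rank 2538 of 108542, and its mean signal per kb was 2715, rank 450. Its GC content was 64.4%, while its ratio of observed to expected CpG was 0.20, below the median of 0.25 over all regions, so it was GC-rich but not a CpG island. The 250 bases printed above, with their marked letters, lie inside it.

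Among the 20094 regions that lie within 2 kb of a protein-coding start, the INS start region was at percentile 91.2 by mean signal and at percentile 98.8 per kb.

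A smaller region, chr11:2159868-2160146, lay 825 bp downstream of the nearest INS start, within the INS gene, over the end of the second intron and part of the last exon. It was 279 bp wide with a mean signal of 287 and 1028 per kb. Between it and the INS start region there was a gap of 697 bp.

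Directly upstream of INS the reference holds a tandem repeat, known as the insulin VNTR, whose repeat length differs between people. In the reference it had a period of 14 bp. Counted by the letters CCTGTCC on the plus strand, with steps of at most 40 bp, it held 27 copies over 391 bp. The first copy began 62 bp past the end of the INS start region. The part of the repeat in the upstream border of the region was not tested.

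The widest region of the locus was chr11:2153680-2159212, 5533 bp, and only 196 of the 108542 regions were at least as wide. Its mean signal of 7894 ranked 42 in the whole table, and its mean signal per kb of 1427 ranked 3680, so its place by mean signal rests partly on its width. It covered 2 IGF2 starts, at 2158336 and 2158391, and extended 821 bp upstream of the outermost one and 4711 bp downstream, into introns of IGF2 and INS-IGF2. Its end lay 1759 bp from the nearest INS start, so it also fell within the 2 kb around the INS start. Per kb, the INS start region was 1.90 times as high as this region.

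The 823 bp between the guide cuts lay inside this region, 2522 bp from its start and 2188 bp from its end, and made up 14.9% of it. The region held 1 CTCF core match, at chr11:2156631-2156644 on the minus strand, and this match lay between the cuts, 4577 bp downstream of the INS start and 1747 bp downstream of the outermost IGF2 start. The next best position between the cuts matched 11 of the 14 letters. The region also held 6 CAGATG, 5 TGCTGA, 4 GTTNCCA and 1 TGANTCA. A match is a description of the letters and not of binding, which ATAC-seq does not measure.

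**Figure D2:**
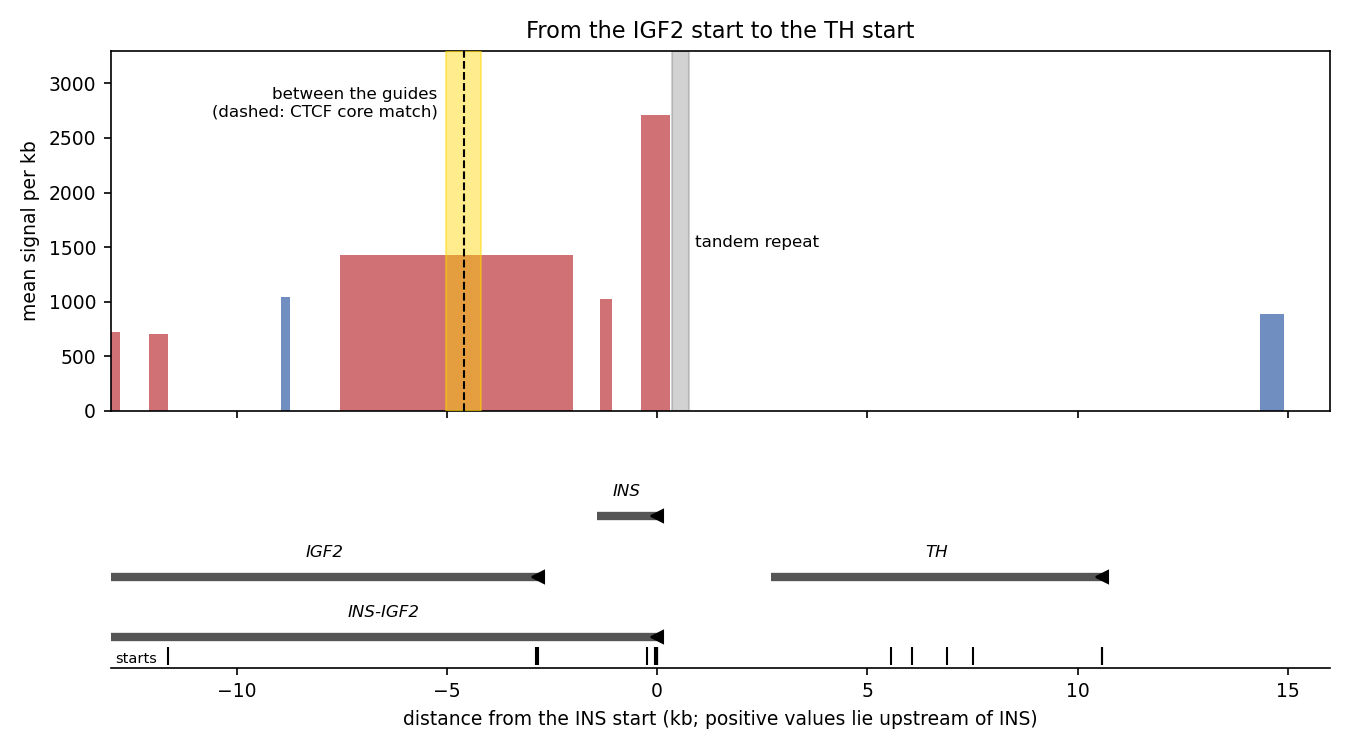
Mean signal per kb of each region, drawn to its width, against distance from the INS start in kb, with gene spans and all annotated starts (ticks) below. Yellow marks the 823 bp between the guide cuts, the dashed line the CTCF core match in it and grey the tandem repeat. The 14047 bp between the INS start region and the next region upstream, which contain the TH gene, hold no region.

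IGF2 had 10 annotated starts, and 7 of them lay inside a region. The 3 starts at 2137287, 2137290 and 2137305 lay in chr11:2137116-2137908, with a mean signal of 448 and 565 per kb. The start at 2141016 lay in chr11:2140893-2141180, with a mean signal of 95.3 and 331 per kb, and the start at 2149579 lay in chr11:2149141-2149595, with a mean signal of 319 and 701 per kb. The remaining 2 covered starts were those in the wide region. The 3 starts outside any region, at 2138974, 2139389 and 2141238, each had one within 2 kb. Levels differed between the regions over IGF2 starts, and the wide region at the upstream start was 2.03 times as high per kb as the next of them. The value of the wide region is an average over 5533 bp, so it does not give the level at the starts themselves.

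The other 6 regions within the IGF2 span but over no IGF2 start varied widely. The largest, chr11:2145192-2146930, had a mean signal of 888 and 511 per kb over 1739 bp and was the fifth of the locus by mean signal. The narrow regions chr11:2139782-2140118 and chr11:2140529-2140759, near the start of the antisense gene IGF2-AS, had mean signals of 156 and 67.0. Their observed over expected CpG ratios were 0.71 and 0.95, and that of the neighbouring region over the IGF2 start at 2141016 was 0.80. The narrowest region of the locus, chr11:2152269-2152481 with 213 bp, had a mean signal of 222 and 1044 per kb. The 2 other regions in this span, chr11:2135886-2136685 and chr11:2148062-2148450, had mean signals of 268 and 280. Beyond the end of IGF2, chr11:2127368-2128990 had a mean signal of 751 over 1623 bp.

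TH had no region near any of its 6 starts. The nearest region was chr11:2175568-2176122, 3753 bp upstream of the outermost TH start, with a mean signal of 490 and 883 per kb. The whole TH gene lay in the 14047 bp between that region and the INS start region. TH catalyses the first step of catecholamine synthesis in neurons and the adrenal medulla, and why it had no region here was not tested.

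From there to ASCL2 lay 11 regions. The first, chr11:2175568-2176122, was followed by chr11:2178692-2179569, with a mean signal of 838. Next came chr11:2189804-2191310 (366), which was 1507 bp wide and held a CTCF core match at chr11:2190428-2190441. Its 243 per kb lay below the median of 626 in the locus but above the 194 over all regions. After it came chr11:2194876-2195142 (121), chr11:2197266-2197940 (338) and chr11:2202251-2203036 (656). The region chr11:2210641-2211851 then stood out, followed by a narrow one, chr11:2214581-2214798 (328, and 1504 per kb). The last 3 were chr11:2234980-2235368 (57.5), chr11:2256628-2257463 (148) and chr11:2262496-2263502 (829).

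The region chr11:2210641-2211851 was 1211 bp wide and lay between genes, 49420 bp from the nearest INS start and 38826 bp from the nearest TH start. Its mean signal was 3902, rank 228 in the table, and its mean signal per kb was 3222, rank 235, the highest of the locus and 1.19 times that of the INS start region. By nearest start it would be assigned to TH among coding genes and to the microRNA gene MIR4686 among all genes. Its middle 300 bases (hg38, chr11:2211096-2211395, plus strand, intergenic) are shown with TAAT in capitals.
Region 49 kb upstream of INS, middle 300 bases: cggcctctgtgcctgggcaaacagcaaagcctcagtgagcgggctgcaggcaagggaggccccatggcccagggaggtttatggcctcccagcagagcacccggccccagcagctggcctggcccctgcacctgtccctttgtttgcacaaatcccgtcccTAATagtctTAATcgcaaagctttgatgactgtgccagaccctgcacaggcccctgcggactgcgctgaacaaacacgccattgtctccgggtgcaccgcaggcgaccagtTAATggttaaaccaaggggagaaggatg
It held TAAT at positions 162 to 165, 171 to 174 and 273 to 276, counted from 1 at the first base shown, and no match to the 9 motifs of the search described further on. TAAT is not 1 of these 9 and was added after the INS promoter had been read. Its share over all regions was not counted. So short a string is common by itself, as in 47.4% of the RefSeq promoters above, and binding was not tested. The whole width of the region held 1 TGCTGA and no CTCF core match.

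**Figure D3:**
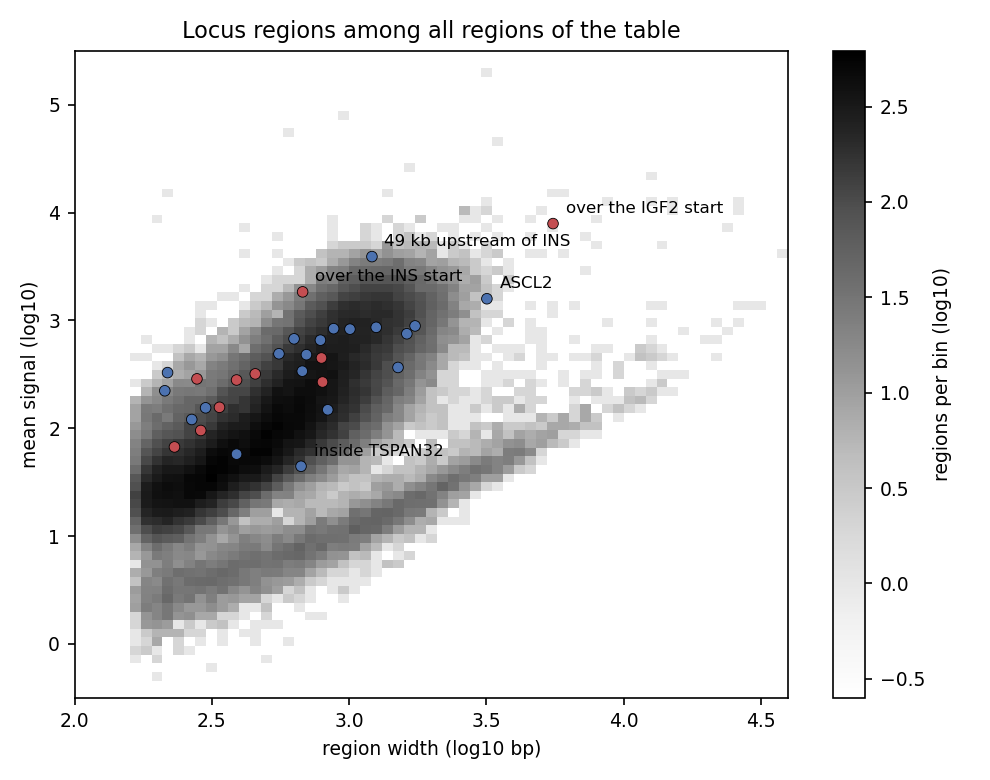
Width in log10 bp against mean signal on a log10 scale for all 108542 regions (grey, darker with more regions per bin) and the 30 regions of the locus (coloured as in the locus plot). The INS start region and the region 49.4 kb upstream of INS lie near the upper edge for their widths, and the region over the IGF2 start lies at the far right, with a mean signal of 7894.

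At the upstream end of the window, the region over ASCL2, a gene for a basic helix-loop-helix factor, was chr11:2268078-2271254, 3177 bp wide, with a mean signal of 1587 and 499 per kb. Its CpG ratio of 0.84 was far above that of the INS start region. The longest gap of the locus, 27808 bp, followed. The 5 regions at C11orf21 and TSPAN32 were chr11:2299063-2299692 (674), chr11:2301084-2302338 (862, over starts of both genes), chr11:2303459-2304157 (481), chr11:2305301-2305600 (155) and chr11:2311427-2312094 (44.4, the lowest of the locus).

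The regions were nearest to TH in 17 cases, to IGF2 in 11, to INS in 2 and to INS-IGF2 in 0, when only starts of these 4 genes counted. Of the 30, 10 lay within 2 kb of a start of 1 of them, with a median mean signal of 283, and 20 lay farther away, with a median of 486. With the starts of all protein-coding genes, 13 regions lay within 2 kb and 17 farther away, and their medians were 319 and 366. Over the whole table the corresponding medians were 506 for 20094 regions and 76.8 for 88448 regions.

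Motif letters were sought in the middle 300 bases of each region, on both strands. Of the 30 regions, 7 held CAGATG (23.3%, against 27.98% of all regions), 6 held TGCTGA (against 25.7% of all) and 3 held GTTNCCA, letters of the RFX element (10.0%, against 21.04%). TGANTCA, the AP-1 element, was in 1 region (3.33%, against 9.86%). The homeodomain letters TAATTA were in 0 of the 30, against 8.66% of all regions, and the forkhead letters TGTTTAC were in 0, against 8.26%. The cyclic AMP element TGACGTCA was in 0 as well, against 0.498%, and so was the SP element GGGGCGGGG, against 3.70%. Of all regions within 2 kb of a protein-coding start, 2.39% held TAATTA and 14.9% held GGGGCGGGG. Of those farther away, 10.1% and 1.16% did. In the locus, 13 of the 30 regions lay within 2 kb of such a start. The CTCF core was in 3 regions (10.0%, against 6.44%). Over their whole width 5 regions held a CTCF core, and the 1 in the widest region lies outside its middle 300 bases. AT-rich letters are rarer in GC-rich DNA, and the part of base composition in these shares was not tested.

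The level over the INS start was set beside that of genes known to control or accompany insulin production. For each gene the strongest region within 2 kb of a coding start was read, and the values are mean signal per kb. All 11 regulators of the INS promoter reported here had such a region, from 299 at GLIS3 to 2164 at NEUROD1, and 0 of these 11 exceeded the 2715 of the INS start region. INS itself was read here at the region over its start. The rule used for the other genes would read it at the wide region, which has the highest mean signal within 2 kb of an INS start, and 7 of the 11 exceeded the 1427 per kb of that region. PDX1, the homeodomain factor that binds the A-boxes, had 2057, and MAFA, which binds MARE elements, had 1114. FOXA2 had 2084 and NKX6-1 had 1505. By mean signal without regard to width, 4 of the 11 exceeded the 1838 of the INS start region, among them PAX6 at 3184 and NEUROD1 at 1843, and 0 of the 11 exceeded the 7894 of the wide region. The place of INS among the regulators therefore depends on which of its regions is read. None of these orders has an error attached.

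The 11 partners in insulin making reported here also had a region. Since the list is not given whole, the INS start region is not ranked among them. CHGA and CHGB, granule proteins, had 2209 and 1702, and the proinsulin-cutting enzymes PCSK2 and PCSK1 had 1483 and 753. IAPP, which is released together with insulin, had 435, SLC30A8, the zinc transporter of insulin granules, 541, G6PC2 286 and SLC2A2 264.

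The label of the cells was checked with marker genes in the same way, again as mean signal per kb. All 9 beta cell markers reported here had a region, with a median of 1114, where INS was read from the wide region, which has the highest mean signal within 2 kb of its starts. All 6 markers of other islet cells reported here had a region, with a median of 400.3. Their range, from 140 at GCG, the glucagon gene of alpha cells, to 771 at IRX2 and 814 at GHRL, overlapped that of the beta cell markers, from 286 at G6PC2 to 2164 at NEUROD1. GHRL and IRX2 lay above the beta cell markers PCSK1 (753), SLC30A8 (541), IAPP (435) and G6PC2. Of the acinar and duct markers 4 of 5 had a region, with a median of 443. PRSS1, the trypsinogen gene of acinar cells, had none, while CPA1, another acinar enzyme gene, had 1298. KRT19 had 737, SOX9 had 150 and PTF1A had 78.4. CPA1 lay above the beta cell median, and KRT19 lay above the beta cell markers SLC30A8, IAPP and G6PC2. SOX9 and PTF1A lay below all 9 beta cell markers. Of the markers of mesenchyme, endothelium and blood 3 of 6 had a region, with a median of 144, and PDGFRB, CDH5 and PTPRC had none. The 3 were COL1A1 at 119, PECAM1 at 144 and CD68 at 921. CD68 lay above all markers of other islet cells and above the beta cell markers PCSK1, SLC30A8, IAPP and G6PC2.

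**Figure D4:**
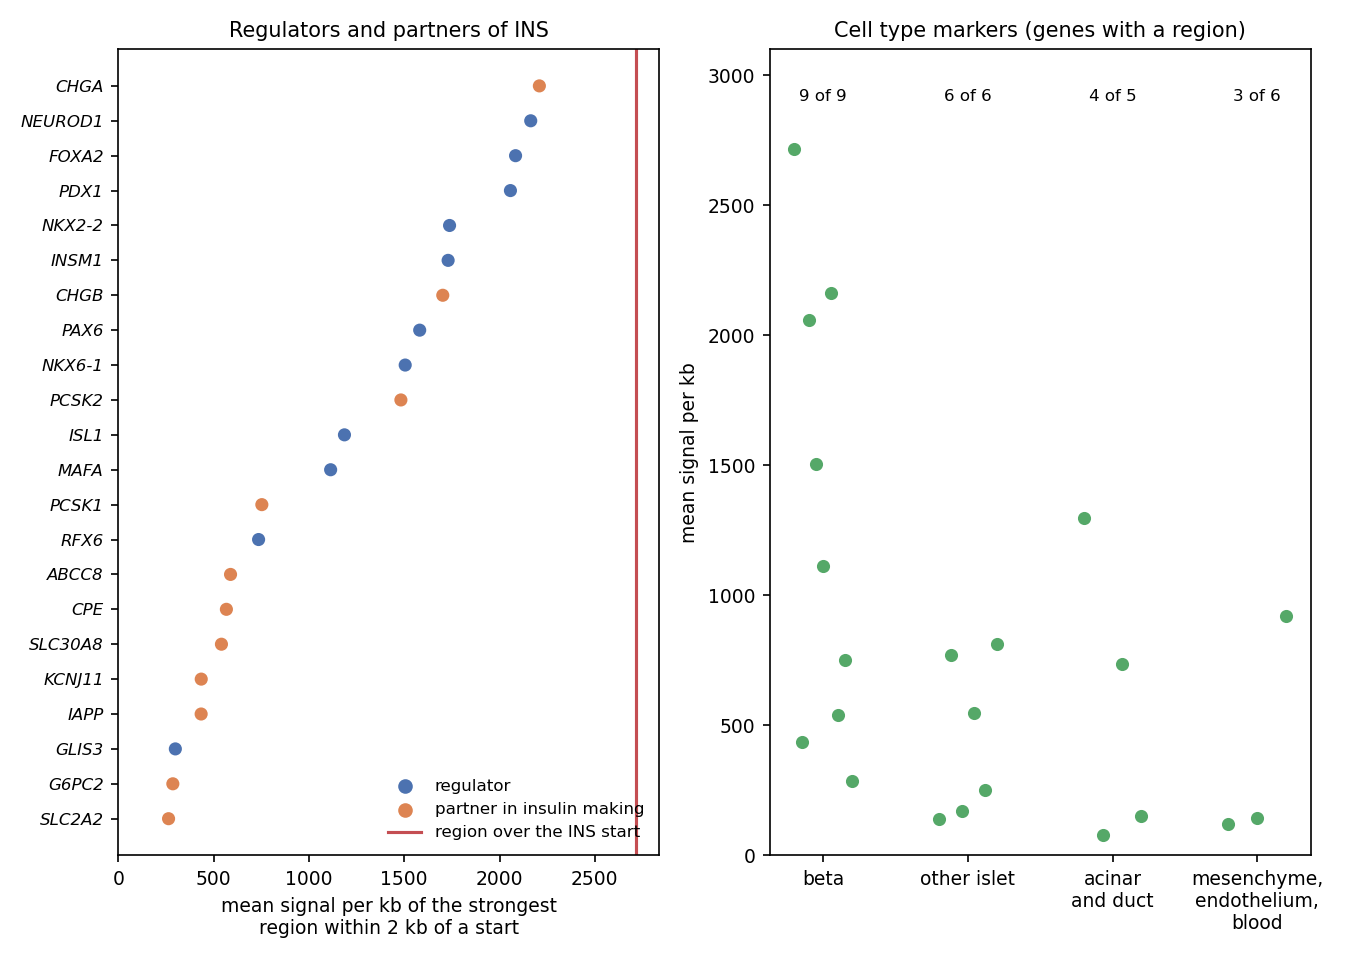
Left, mean signal per kb of the strongest region within 2 kb of a start of each regulator (blue) and partner in insulin making (orange), with the region over the INS start as a red line at 2715. Right, the same for cell type markers, each point a gene, with INS drawn at its start region and the number of genes with a region above each list. The INS start region lies above the 11 regulators drawn, while the wide region, which is not drawn, has 1427, and genes not reported here are not drawn, so the plot does not rank INS among all partners.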

How the data were processed

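Paired-end reads had been trimmed (Trim Galore, Cutadapt) and aligned by the authors to hg38 (Bowtie2). Mitochondrial reads and Picard duplicates were discarded, the transposase offset was corrected with deepTools, and reads were counted over merged MACS2 peaks. The authors scaled these counts with DESeq2. These steps fit ATAC-seq, and versions are not given in the sources used here. The deposited table holds, per region, the mean signal, the authors' mean over 6 libraries of size-factor scaled counts. Its other columns hold the authors' comparison of the groups (fold change, standard error, statistic and p-values). They were not used, so no comparison of the groups and no test was made. 0 columns held a single library, so depth per library was not read from the table, and the range that the study states is not repeated here.

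Region starts were read as counted from 0 and are printed 1 higher. 0 regions lay past a chromosome end of the hg38 reference used. Genes, exons and starts came from GENCODE 44, promoter sequence from RefSeq (GRCh38.p14), and guides from the study's oligonucleotide list, placed by exact match. RefSeq promoters held INS and INS-IGF2. Mean signal per kb is mean signal divided by width. A promoter region lay within 2 kb of a start. Motifs were exact on both strands, and the CTCF core allowed 1 mismatch in 14 letters. Ranks were taken over all 108542 regions. Percentiles were taken over the same regions or, where stated, over the 20094 within 2 kb of a protein-coding start. Regions given in full were those at promoters of the 4 genes, the 5 of highest mean signal and those at the guides, and the others are given in brief. Other genes were coding or microRNA genes with a start in the window, 11 regulators, 11 partners and cell type markers. Some genes of these lists are not reported here, and counts and medians are over those that are. Members and lists were chosen with earlier results of these data known. The search and distances were tested on simulated sequence. Python 3.11.15, pandas 2.3.3, numpy 2.4.6, pysam 0.24.0 and matplotlib 3.10.9 were used. Alternatives changed the window, the promoter width, the background of the percentile, the set of starts and the motif window.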

Additional observations from a re-analysis of the deposited data

How the results depend on the processing

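The values are means over both groups, so they carry no replicate error, and depth, base composition and mappability were not separated from accessibility. No paired analysis was possible because values per library, which the numbered replicates would need, were not analysed here. The number of regions in the window was 30 when only regions wholly inside were kept, 29 at a mean signal of at least 50 and 35 with the window widened by 50 kb on each side. Promoter regions numbered 10, and 3 when 1 start per gene was used. The INS start region was at percentile 97.7 of all regions, 99.6 per kb of width and 91.2 among promoter regions. The strongest region held 31.1% of the signal, and 13.5% when signal per kb was summed, where another region is the strongest. With starts of all genes, 7 regions were nearest to IGF2 and 0 to TH, and with coding genes 8 were nearest to TH. The median mean signal was 352, and 486 in regions farther than 2 kb from the 4 genes' starts. Over the whole width, the number of regions was 3 for TAATTA, 14 for CAGATG, 17 for TGCTGA, 9 for GTTNCCA, 1 for TGTTTAC, 4 for TGANTCA, 4 for GGGGCGGGG and 5 for the CTCF core. In the middle 500 bases it was 15 for CAGATG, 13 for TGCTGA, 2 for TGANTCA and 3 for GGGGCGGGG. These counts rise with the length searched.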
